A study of Mus musculus with 8 samples.

Results

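The genes described are 10 markers of the cells that form brain capillaries, out of 34980 genes with a symbol and an Ensembl ID in the deposited count tables. They were selected by name, and the transcript with the most counts over the 6 libraries stood for each gene. 8 of the genes mark endothelial cells (Cldn5, Cdh5, Pecam1, Kdr, Flt1, Tek, Abcb1a and Slco1a4), and Pdgfrb and Rgs5 mark pericytes. All 10 passed the filter on low counts. RNA came from layer IV of the visual cortex of B6D2 mice, dissected by hand, in 3 groups of 2 libraries: heterozygous mice (Otx2 +/-, written as Otx2 +/GFP in the series text) at postnatal day 30 (P30), wild-type mice (Otx2 +/+) at P100, and wild-type mice at P30. Tissue of 4 mice was pooled per condition, in duplicate. Heterozygous tissue at P100 is not analysed here. Whether duplicates are separate pools is not stated. A p-value here sets a difference between groups against the spread of these libraries, and that spread may be only technical.

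Brain endothelial cells line the capillaries and form the blood-brain barrier. Claudin-based tight junctions seal the gaps between them, and efflux pumps and uptake carriers control what crosses the cell. Vascular endothelial growth factor (VEGF) and angiopoietins act on receptors at the endothelial surface. Platelet-derived growth factor B from endothelial cells acts on its receptor on pericytes, the mural cells wrapped around the capillary. In cortical tissue these cells are a minority among neurons and glia. In such bulk tissue, fewer cells of a type and less RNA per cell cannot be told apart.

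Gene-level totals were 14842212 and 15308781 counts in the heterozygous P30 libraries, 13733970 and 11168076 in the wild-type P100 libraries, and 11016841 and 14870365 in the wild-type P30 libraries. The 10 markers of neurons summed to 8327 to 9779 CPM (the count scaled to library size by TMM) per library, and the 10 vascular genes to 412.3 to 510.9 CPM. Heterozygous replicate 2 held 8966 counts of Ttr, a transcript of the choroid plexus, and 73 of Otx2, against 0 or 1 count of Ttr and 0 of Otx2 in each other library, so Otx2 itself gives no check of the genotype labels. The groups also differed in Xist, made from the inactive X chromosome, with 784.8 and 924.4 CPM in heterozygous tissue, against 0.264 to 0.639 CPM in wild-type tissue. Sex-linked expression and genotype therefore cannot be told apart in any comparison of heterozygous with wild-type tissue, and both of these comparisons use the same 2 heterozygous libraries.

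The promoters of the 3 genes that changed, Cldn5, Kdr and Rgs5, are shown with that of Flt1, the other VEGF receptor gene of the list, for comparison with Kdr. Each line gives the 250 bases before the RefSeq start, from GRCm38.p6, on the strand of the gene. They lie at chr16:18776597-18776846 (plus strand) for Cldn5, chr5:75978456-75978705 (minus strand) for Kdr, chr1:169655251-169655500 (plus strand) for Rgs5 and chr5:147726012-147726261 (minus strand) for Flt1. Capitals mark matches on either strand to 6 short motifs: the GC box GGGCGG, the core sequences AGGAAG as well as CCGGAA that are bound by ETS factors active in endothelial cells, the TATA box TATAAA, the motif AGATAA of GATA factors, and the motif ACAATG of SOX factors.
Cldn5: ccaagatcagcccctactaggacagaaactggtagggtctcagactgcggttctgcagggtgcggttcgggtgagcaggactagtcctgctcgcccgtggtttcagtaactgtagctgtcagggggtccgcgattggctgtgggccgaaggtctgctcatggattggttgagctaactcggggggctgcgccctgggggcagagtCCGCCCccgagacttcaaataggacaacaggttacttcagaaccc
Kdr: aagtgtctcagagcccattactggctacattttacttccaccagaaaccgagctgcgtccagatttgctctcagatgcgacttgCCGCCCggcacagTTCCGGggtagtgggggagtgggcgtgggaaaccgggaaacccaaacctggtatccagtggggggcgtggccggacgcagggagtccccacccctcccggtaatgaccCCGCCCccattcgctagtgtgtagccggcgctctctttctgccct
Rgs5: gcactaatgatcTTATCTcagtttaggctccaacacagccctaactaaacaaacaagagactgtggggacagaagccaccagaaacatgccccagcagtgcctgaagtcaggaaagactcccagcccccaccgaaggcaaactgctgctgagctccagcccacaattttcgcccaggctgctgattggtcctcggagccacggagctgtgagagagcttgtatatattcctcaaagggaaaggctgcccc
Flt1: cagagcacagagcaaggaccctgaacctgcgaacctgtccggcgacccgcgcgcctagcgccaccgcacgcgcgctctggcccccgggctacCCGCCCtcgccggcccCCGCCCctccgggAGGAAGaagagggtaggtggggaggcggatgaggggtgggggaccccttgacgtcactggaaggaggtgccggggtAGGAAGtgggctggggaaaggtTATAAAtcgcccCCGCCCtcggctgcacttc
The Cldn5 window held 1 GC box, its first base 45 bases before the start. Kdr held 2 GC boxes, the nearer one also 45 bases before its start, and 1 CCGGAA core. Rgs5 held a GATA match, 238 bases upstream, and none of the other motifs. Flt1 held 3 GC boxes, 2 AGGAAG cores and a TATA match 31 bases before the start. Promoters of 7 of the 10 genes were in the RefSeq table. The Abcb1a window (chr5:8566841-8567090) lay far upstream of the GENCODE start of the gene (8660077), so it does not adjoin the transcript counted here. Among these 7, 3 held a GC box, against 32.74% of all 32851 windows of this length, 3 held AGGAAG (29.48% of all windows) and 1 held CCGGAA (12.03%). The TATA box, the GATA motif and the SOX motif were each present in 1 of the 7, and in 12.37%, 9.988% and 10.69% of all windows. Cldn5 and Kdr shared the GC box, and no motif of this set was common to all 3 genes that changed. These matches describe the letters of the windows and are not evidence of binding.

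Levels per kilobase of transcript, in TMM-scaled CPM averaged over the 6 libraries, were highest for Rgs5 (43.5) and Slco1a4 (20.3). Cldn5 (14.8), Abcb1a (7.68), Flt1 (7.38), Tek (5.66) and Pecam1 (5.41) followed. Pdgfrb (3.77), Kdr (3.55) and Cdh5 (1.76) were the lowest of the 10. The range over libraries of Rgs5 (35.3 to 49.0) lay above that of Slco1a4 (17.9 to 22.2), and that of Cldn5 (10.7 to 22.1) above that of Abcb1a (6.30 to 9.87). The ranges of all other neighbours in this order overlapped, Kdr (2.20 to 4.85) and Cdh5 (1.51 to 2.21) only just.

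The comparison of heterozygous with wild-type cortex at P30 is at an age within the critical period for ocular dominance plasticity. Genotype and sex-linked expression differ together in it. 1 of the 10 genes changed, the tight junction gene Cldn5, which was lower in heterozygotes, and none was higher by edgeR, DESeq2 or limma-voom (0 with an unadjusted p under 0.05 in edgeR). Over all 15841 genes tested, 2.32% were called lower and 3.23% in either direction (edgeR quasi-likelihood test, adjusted p under 0.05). The log2 fold changes of 9 genes lay below 0, as did those of 7814 of all 15841 tested genes. The median was -0.20, against 0.00 for all tested genes. Kdr (-0.01), Pdgfrb (-0.03) and Rgs5 (-0.0013) were among the 9, and each changed sign under some alternatives. The libraries of both groups did not overlap for 5 of the 10 genes, close to the 48.9% of all tested genes.

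The comparison of wild-type cortex at P100 with P30 follows the tissue from within to after that period. 3 of the 10 genes fell: Cldn5, the VEGF receptor gene Kdr and the pericyte gene Rgs5, and none rose by edgeR, DESeq2 or limma-voom (0 with an unadjusted p under 0.05 in edgeR). DESeq2 called 2 of the 3 falls, without Cldn5. Over all genes, 4.54% were called lower and 7.54% in either direction in the same test. Here too 9 log2 fold changes lay below 0, as did those of 7895 of all 15841 tested genes. The median was -0.23, against 0.00 over all genes. The libraries did not overlap for 7 of the 10 genes, against 51.2% of all tested genes. Both comparisons use the wild-type P30 libraries, so their fold changes are not independent of each other.

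**Figure D1:**
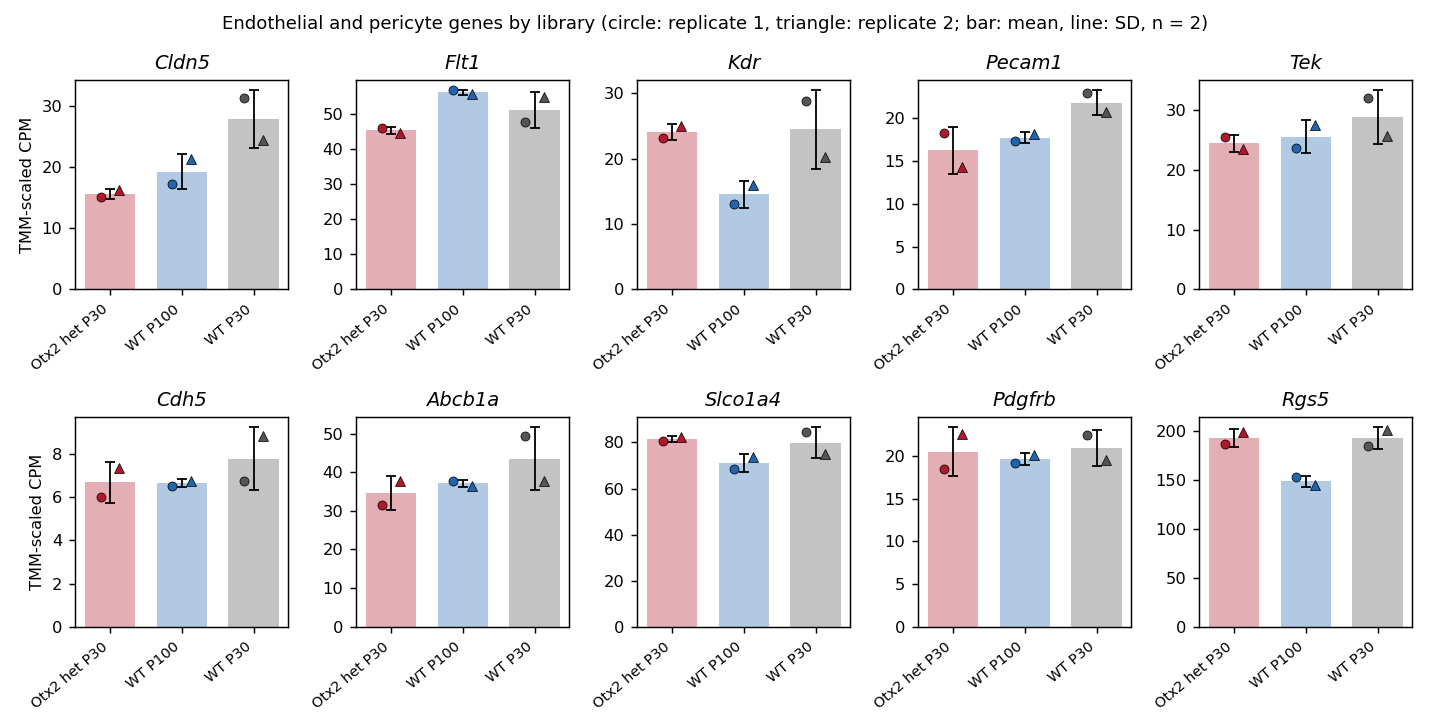
TMM-scaled CPM of the 10 genes in each library of the heterozygous P30, wild-type P100 and wild-type P30 groups; bars are means, lines SD (n = 2), circles replicate 1 and triangles replicate 2. Cldn5 was below both wild-type P30 libraries in the 2 heterozygous and the 2 wild-type P100 libraries, whereas Kdr and Rgs5 were below the other 4 libraries in the 2 wild-type P100 libraries.

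Cldn5 encodes claudin-5, the main claudin of the tight junctions that seal the blood-brain barrier. It is a gene of 1 exon (ENSMUSG00000041378, mm10 chromosome 16, 18776847 to 18778262, plus strand). It stood at 15.1 and 16.3 CPM in heterozygous P30 libraries, at 17.2 and 21.4 CPM in wild-type P100 libraries and at 31.3 and 24.5 CPM in wild-type P30 libraries. Both wild-type P30 libraries were above all others. The level was 15.7 ± 0.844 CPM in heterozygotes and 27.9 ± 4.79 CPM in wild type at P30 (SD, n = 2 each), 1.77-fold lower in heterozygotes, with a log2 fold change of -0.82 (SE 0.14, 95% interval -1.13 to -0.52, edgeR adjusted p = 0.00642). This call was kept under all 15 alternatives, with adjusted p from 5.87e-08 to 0.0498, and at 0.0164 without the heterozygous library that held Ttr. The authors' deposited table gave a log2 change of -0.83 with an adjusted p of 0.00404 for the transcript.

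With age, Cldn5 stood at 19.3 ± 2.94 CPM at P100 and 27.9 ± 4.79 CPM at P30 (SD, n = 2 each), 1.45-fold lower at P100, with a log2 fold change of -0.53 (SE 0.14, 95% interval -0.84 to -0.22, edgeR adjusted p = 0.0383). Leaving out wild-type P30 replicate 1 ended this call (log2 fold change -0.35, edgeR adjusted p = 0.220), as did leaving out either P100 library (-0.38 and 0.243 without replicate 1, -0.69 and 0.0649 without replicate 2). It was also lost with DESeq2 (adjusted p = 0.0618), and the authors' deposited table gave an adjusted p of 0.523. Between heterozygous P30 and wild-type P100 tissue Cldn5 was not called (log2 fold change -0.29, 95% interval -0.61 to 0.03, edgeR adjusted p = 0.300). The libraries of these groups did not overlap, with the heterozygous ones lower.

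Cdh5 encodes VE-cadherin, the adherens junction cadherin of endothelial cells, and Pecam1 the adhesion molecule CD31. Cdh5 (ENSMUSG00000031871, chromosome 8, 104101625 to 104144511, plus strand) and Pecam1 (ENSMUSG00000020717, chromosome 11, 106654217 to 106750628, minus strand) are multi-exon genes of mm10. Cdh5 had the fewest counts of the 10 genes, 74 to 127 per library. It stood at 6.03 and 7.36 CPM in heterozygous libraries, at 6.51 and 6.78 CPM in wild type at P100 and at 6.76 and 8.83 CPM at wild-type P30. The groups overlapped in every comparison. Pecam1 stood at 18.2 and 14.3 CPM in heterozygous libraries, at 17.3 and 18.2 CPM in wild type at P100 and at 22.9 and 20.8 CPM at wild-type P30. Both wild-type P30 libraries were the highest, as for Cldn5. Its log2 fold change was -0.42 in heterozygotes against wild type at P30 (SE 0.13, 95% interval -0.71 to -0.13, edgeR adjusted p = 0.111) and -0.30 at P100 against P30 (SE 0.14, adjusted p = 0.212), and neither passed over all genes.

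Of the VEGF receptor genes, Kdr changed and Flt1 passed in no comparison, and the difference between them was not tested. Kdr encodes VEGFR2, the receptor that carries most of the signal of VEGF-A in endothelial cells (ENSMUSG00000062960, chromosome 5, 75932827 to 75978458, minus strand). It stood at 23.2 and 24.9 CPM in heterozygous P30 libraries, at 13.03 and 16.0 CPM in wild-type P100 libraries and at 28.8 and 20.2 CPM in wild-type P30 libraries. Both P100 libraries were below the other 4. The P100 level was 14.5 ± 2.11 CPM and the P30 level 24.5 ± 6.03 CPM in wild type (SD, n = 2 each), 1.68-fold lower at P100, with a log2 fold change of -0.75 (SE 0.16, 95% interval -1.10 to -0.40, edgeR adjusted p = 0.0148). Without wild-type P30 replicate 1 the call did not hold (log2 fold change -0.49, edgeR adjusted p = 0.0965), nor without wild-type P100 replicate 1 (-0.60, 0.132), and the authors' deposited table gave an adjusted p of 0.507 for the same transcript.

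Heterozygous P30 tissue had 1.66-fold more Kdr than wild-type P100 tissue, a log2 fold change of 0.74 (SE 0.16, 95% interval 0.39 to 1.08, edgeR adjusted p = 0.0183). In this comparison age, genotype and sex-linked expression differ together. The call was lost without heterozygous replicate 2 (adjusted p = 0.0752), P100 replicate 1 (0.178) or P100 replicate 2 (0.0561) in edgeR's test. At P30, heterozygotes and wild type were not distinguished in Kdr (log2 fold change -0.01, 95% interval -0.34 to 0.32, edgeR adjusted p = 0.978), an interval of 0.789 to 1.24 as a ratio.

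Flt1 encodes VEGFR1, which binds VEGF-A tightly and limits its access to VEGFR2 (ENSMUSG00000029648, chromosome 5, 147561604 to 147726011, minus strand). It stood at 46.0 and 44.7 CPM in heterozygous libraries, at 56.7 and 55.7 CPM in wild type at P100 and at 47.6 and 54.8 CPM at wild-type P30. The P100 libraries were the highest and the heterozygous ones the lowest, without overlap between any 2 groups. Flt1 passed in no comparison: the log2 fold change was 0.13 at P100 against P30 (SE 0.10, 95% interval -0.07 to 0.34, edgeR adjusted p = 0.449) and -0.31 in heterozygous P30 against wild-type P100 tissue (SE 0.10, 95% interval -0.51 to -0.10, edgeR adjusted p = 0.0830). The difference from P100 tissue was called when wild-type P30 replicate 1 (edgeR adjusted p = 0.0480) or replicate 2 (0.0484) was left out.

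The count of Kdr relative to that of Flt1 in the same library, which does not depend on the scaling, was 0.504 and 0.558 in heterozygotes at P30, against 0.230 and 0.288 in wild type at P100 and 0.605 and 0.369 in wild type at P30. Both P100 libraries were below the other 4. The files list 5 transcripts of Flt1. The 30-exon form encodes 1333 residues, and a 13-exon form encodes 688, in GENCODE M21. Flt1 forms that lack the membrane-spanning part are secreted and bind VEGF. The forms share 2226 exon bases, 32.3% of the 30-exon form and 35.4% of the 13-exon form, and reads there may count in both. The count of the 13-exon form relative to the 30-exon form was 1.05 and 1.00 in heterozygous libraries, 0.989 and 0.954 in wild type at P100 and 0.927 and 0.879 at wild-type P30. The groups did not overlap, and this ratio was not tested.

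Tek encodes TIE2, the receptor of the angiopoietins (ENSMUSG00000006386, chromosome 4, 94739289 to 94874976, plus strand). It stood at 25.5 and 23.5 CPM in heterozygous libraries, at 23.7 and 27.5 CPM in wild type at P100 and at 32.1 and 25.7 CPM at wild-type P30. Wild-type P30 replicate 1 was the highest library, as it was for Cldn5, Kdr, Pecam1, Abcb1a and Slco1a4. Tek passed in no comparison, with log2 fold changes of -0.23 in heterozygotes against wild type at P30 (95% interval -0.51 to 0.04) and -0.17 at P100 against P30 (-0.45 to 0.11).

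The barrier transporter genes of the list did not pass in any comparison. Abcb1a encodes P-glycoprotein, the efflux pump that returns many drugs to the blood (ENSMUSG00000040584, chromosome 5, 8660077 to 8748575, plus strand). It stood at 31.5 and 37.6 CPM in heterozygous libraries, at 37.6 and 36.5 CPM in wild type at P100 and at 49.3 and 37.7 CPM at wild-type P30. Its log2 fold change in heterozygotes against wild type at P30 was -0.33 (SE 0.13, 95% interval -0.60 to -0.05, edgeR adjusted p = 0.203), and 4.84% of the exon bases of its transcript are shared with Gm42686. Slco1a4 encodes Oatp1a4, a carrier of organic anions across brain endothelium (ENSMUSG00000030237, chromosome 6, 141805440 to 141856199, minus strand). It stood at 80.5 and 82.3 CPM in heterozygous libraries, at 68.4 and 73.8 CPM in wild type at P100 and at 84.7 and 75.1 CPM at wild-type P30. The P100 libraries were the lowest, by a log2 fold change of -0.17 against P30 (SE 0.09, 95% interval -0.35 to 0.02, edgeR adjusted p = 0.276). The count of Cldn5 relative to that of Slco1a4 was 0.187 and 0.198 in heterozygous libraries, 0.252 and 0.290 in wild type at P100 and 0.370 and 0.327 at wild-type P30, 3 ranges that did not overlap. Relative to Pecam1 the Cldn5 count was 0.827 and 1.14 in heterozygotes, 0.996 and 1.17 in wild type at P100 and 1.37 and 1.18 in wild type at P30, and there the ranges of heterozygotes and wild type at P100 overlapped.

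**Figure D2:**
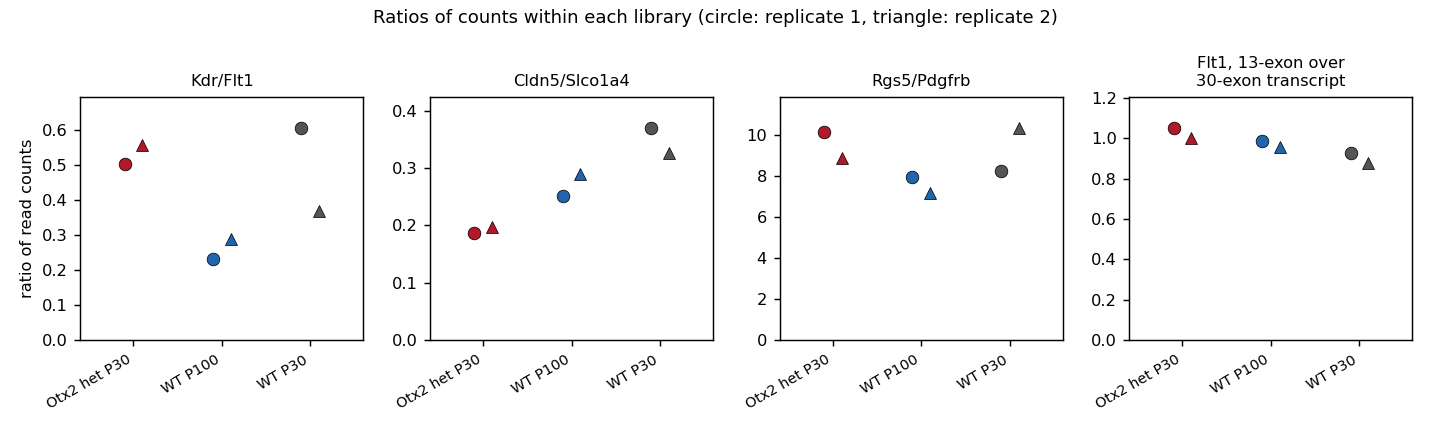
Ratio of read counts within each library for Kdr over Flt1, Cldn5 over Slco1a4, Rgs5 over Pdgfrb, and the 13-exon over the 30-exon transcript of Flt1; circles are replicate 1 and triangles replicate 2 of the heterozygous P30, wild-type P100 and wild-type P30 groups. Kdr over Flt1 was 0.230 and 0.288 at wild-type P100, below the other 4 libraries, and Cldn5 over Slco1a4 was lowest in the heterozygous libraries, at 0.187 and 0.198.

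Of the pericyte genes, Rgs5 changed and Pdgfrb passed in no comparison, and the difference between them was not tested. Rgs5 encodes a regulator of G protein signalling that is abundant in pericytes (ENSMUSG00000026678, chromosome 1, 169655501 to 169695813, plus strand). It stood at 186 and 199 CPM in heterozygous P30 libraries, at 153 and 145 CPM in wild-type P100 libraries and at 185 and 201 CPM in wild-type P30 libraries. The P100 libraries were below the other 4, and the genotypes overlapped at P30. The P100 level was 149 ± 5.59 CPM and the P30 level 193 ± 11.2 CPM in wild type (SD, n = 2 each), 1.30-fold lower at P100, with a log2 fold change of -0.38 (SE 0.07, 95% interval -0.53 to -0.22, edgeR adjusted p = 0.00785). The authors' deposited table gave -0.37 with an adjusted p of 0.0371. Without wild-type P30 replicate 2 the call did not hold (log2 fold change -0.31, edgeR adjusted p = 0.0671), nor without wild-type P100 replicate 2 (-0.34, 0.0893).

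Rgs5 was 1.30-fold higher in heterozygous P30 than in wild-type P100 tissue (log2 fold change 0.37, SE 0.07, edgeR adjusted p = 0.00932). That call was lost without heterozygous replicate 2 (adjusted p = 0.0926), P100 replicate 1 (0.0520) or P100 replicate 2 (0.0963) in the same test. Between genotypes at P30 its log2 fold change was 0.00 (95% interval -0.16 to 0.15, edgeR adjusted p = 0.994). Pdgfrb encodes the receptor for platelet-derived growth factor B that pericytes need to reach the vessel wall (ENSMUSG00000024620, chromosome 18, 61045150 to 61085061, plus strand). It stood at 18.4 and 22.5 CPM in heterozygous libraries, at 19.2 and 20.1 CPM in wild type at P100 and at 22.5 and 19.5 CPM at wild-type P30. All 3 groups overlapped, and the 95% interval of its log2 fold change was -0.31 to 0.25 in heterozygotes against wild type at P30 and -0.37 to 0.20 at P100 against P30. The count of Rgs5 relative to Pdgfrb was 10.1 and 8.84 in heterozygous libraries, 7.96 and 7.18 in wild type at P100 and 8.24 and 10.3 at wild-type P30.

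**Figure D3:**
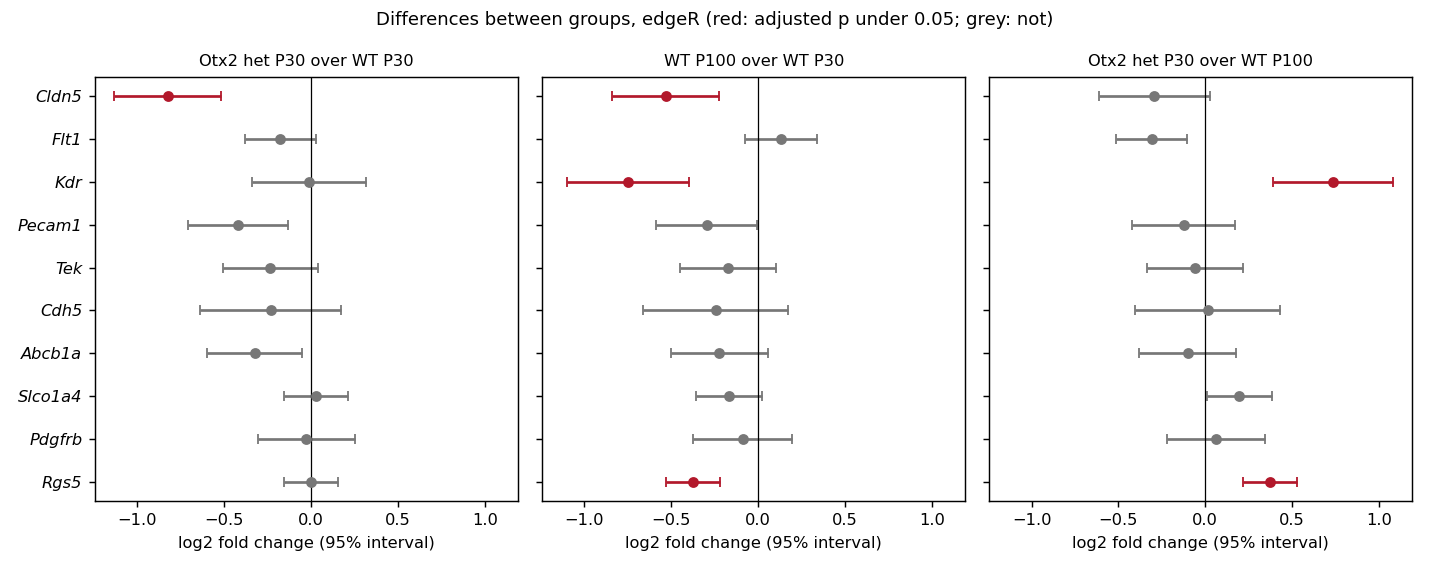
Log2 fold change of each gene with its 95% interval (edgeR) for heterozygous over wild-type P30, wild-type P100 over wild-type P30 and heterozygous P30 over wild-type P100 tissue; red marks adjusted p under 0.05. Cldn5 was called at -0.82 between genotypes and at -0.53 with age, whereas Kdr and Rgs5 were called with age and between heterozygous P30 and wild-type P100 tissue, at 0.74 and 0.37.

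Set against wild-type P100 tissue, heterozygous P30 tissue thus had 2 of the 10 genes called higher, Kdr and Rgs5, and none lower by edgeR, DESeq2 or limma-voom (1, Flt1, with an unadjusted p under 0.05 in edgeR), where 2.44% of all tested genes were called higher and 2.66% lower. The median log2 fold change was -0.02, against 0.00 over all genes, with 5 values on either side of 0. The libraries did not overlap for 5 of the 10 genes, against 50.5% of all tested genes.

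Other endothelial genes were examined from lists of the same kinds. Beside the counts of each list below, 2.32% of all tested genes were called lower between genotypes and 4.54% lower with age by edgeR. For heterozygous P30 against wild-type P100 tissue, 2.44% of all tested genes were called higher. Of 20 further endothelial genes, 1 was lower in heterozygotes than in wild type at P30 and none higher, with a median log2 fold change of -0.11. It was Mcam, which encodes the adhesion molecule CD146 and is also made by mural cells. Mcam stood at 11.7 and 10.1 CPM in heterozygous libraries, at 8.25 and 8.27 CPM in wild type at P100 and at 22.6 and 17.2 CPM at wild-type P30. It was 1.82-fold lower in heterozygotes than in wild type at P30 (log2 fold change -0.86, SE 0.15, edgeR adjusted p = 0.00739), a call lost by a small margin without heterozygous replicate 2 (adjusted p = 0.0503). It was 2.39-fold lower at P100 than at P30 (log2 fold change -1.26, SE 0.16, edgeR adjusted p = 4.59e-04), under all 15 alternatives too. Of the same 20 genes, 2 fell with age, Mcam and Itm2a, and none rose (0 with an unadjusted p under 0.05), with a median of -0.21. Itm2a fell 1.54-fold (edgeR adjusted p = 0.0102), but not when wild-type P30 replicate 1 was left out (adjusted p = 0.0638), nor P100 replicate 1 (0.0559) or replicate 2 (0.0853). It was 1.38-fold higher in heterozygous P30 than in wild-type P100 tissue (edgeR adjusted p = 0.0491), a call that held under 6 of 15 alternatives, by neither DESeq2 (adjusted p = 0.0679) nor limma-voom (0.0556), and that was lost without any 1 of the heterozygous or P100 libraries (0.0673 to 0.289).

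Of 9 further junction genes tested, none passed between genotypes by edgeR, DESeq2 or limma-voom (1 had an unadjusted p under 0.05 in edgeR) and 1 fell with age, Jam2, which encodes a junctional adhesion molecule. Its call (1.28-fold, edgeR adjusted p = 0.0427) held under 6 of 15 alternatives and was lost without any 1 of the 6 libraries (adjusted p = 0.0538 to 0.167). Ocln, which encodes occludin, a partner of claudins in the tight junction, stood at 11.4 and 11.5 CPM in heterozygous libraries and at 12.1 and 11.5 CPM in wild-type P30 libraries.

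Of 15 further barrier transporter genes, none passed between genotypes at P30 by edgeR, DESeq2 or limma-voom (2 had an unadjusted p under 0.05 in edgeR), 4 fell with age and none rose, with medians of -0.09 and -0.24. Slc16a1, which encodes the lactate carrier MCT1 and is also made by oligodendrocytes, stood at 40.2 and 39.2 CPM at P100 and at 85.2 and 61.0 CPM at P30 in wild type, 1.83-fold lower at P100 (edgeR adjusted p = 0.00140). Tfrc, the transferrin receptor gene, fell 1.37-fold and Slco1c1, a thyroid hormone carrier gene shared with astrocytes, fell 1.40-fold (edgeR adjusted p = 0.00263 and 0.00436), but Slco1c1 not without wild-type P100 replicate 2 (0.0616). Tfrc stood at 209 to 308 CPM over the libraries, and which cells its RNA came from was not tested. Slc22a8, the organic anion transporter gene of the barrier, also fell (log2 fold change -0.75, edgeR adjusted p = 0.0299), but not by DESeq2 (adjusted p = 0.104) or without any 1 of the 4 wild-type libraries (edgeR adjusted p = 0.0569 to 0.174). Set against wild-type P100 tissue, heterozygous P30 tissue had 5 of the 15 genes called higher and none lower (1 with an unadjusted p under 0.05 in edgeR, none by DESeq2 or limma-voom). These were the same 4 and Slc3a2, the gene of the heavy chain of amino acid carriers, which was 1.32-fold higher (edgeR adjusted p = 0.00706), but not without heterozygous replicate 1 (0.0654), P100 replicate 1 (0.0708) or P100 replicate 2 (0.0530). Without P100 replicate 2 each of the other 4 was lost too (edgeR adjusted p = 0.0735 for Tfrc, 0.0676 for Slc22a8, 0.179 for Slco1c1 and 0.164 for Slc16a1). The same 4 were lost without heterozygous replicate 2 (0.0731 for Tfrc, 0.149 for Slc22a8, 0.275 for Slco1c1 and 0.0511 for Slc16a1). Without P100 replicate 1 the calls of Slc22a8 (0.157), Slco1c1 (0.102) and Slc16a1 (0.140) were lost, and without heterozygous replicate 1 that of Slc16a1 (0.143). DESeq2 did not call Slc22a8 (adjusted p = 0.0667).

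Of 16 genes of VEGF, angiopoietin, PDGF and related signals, 1 was lower in each comparison with wild-type P30, Apln, and none higher by edgeR, DESeq2 or limma-voom. With an unadjusted p under 0.05 in edgeR, 1 was higher in heterozygotes at P30, Angpt1 (log2 fold change 0.72, edgeR adjusted p = 0.152). With age, 6 were lower by that measure, Apln among them, and 0 higher. Apln encodes apelin, a peptide that acts on endothelial cells. It stood at 27.1 and 28.9 CPM in heterozygous libraries, at 31.6 and 25.0 CPM in wild type at P100 and at 47.7 and 45.3 CPM at wild-type P30. It was 1.66-fold lower in heterozygotes (log2 fold change -0.73, SE 0.11, edgeR adjusted p = 0.00316) and 1.64-fold lower at P100 (log2 fold change -0.71, SE 0.12, edgeR adjusted p = 0.00264), each under all 15 alternatives. Vegfa, the ligand of Kdr and Flt1, stood at 75.5 and 77.5 CPM in heterozygous libraries, at 66.2 and 62.0 CPM in wild type at P100 and at 76.5 and 73.4 CPM at wild-type P30, and passed in neither comparison. Set against wild-type P100 tissue, heterozygous P30 tissue had 2 of the 16 genes called higher and none lower. These were Angpt1, an angiopoietin gene that is also in the pericyte list (2.05-fold, edgeR adjusted p = 0.0359, not called by DESeq2), and Pdgfa (1.43-fold, 0.0245), which encodes a platelet-derived growth factor. Both calls were lost without heterozygous replicate 1 (edgeR adjusted p = 0.284 for Angpt1 and 0.123 for Pdgfa), P100 replicate 1 (0.160 and 0.142) or P100 replicate 2 (0.175 and 0.114), and Pdgfa also without heterozygous replicate 2 (0.0874).

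Wnt ligands from neurons and glia induce barrier properties in brain endothelium. Of 13 genes of this pathway, none passed between genotypes by edgeR, DESeq2 or limma-voom (4 had an unadjusted p under 0.05 in edgeR), 3 fell with age and none rose, with medians of 0.04 and -0.34. Fzd4, which encodes the endothelial receptor, stood at 5.94 and 4.49 CPM at P100 and at 11.9 and 10.8 CPM at P30 in wild type, 2.15-fold lower at P100 (log2 fold change -1.10, SE 0.20, edgeR adjusted p = 0.00452). The call was lost without wild-type P100 replicate 2 (log2 fold change -0.92, edgeR adjusted p = 0.0610). Its co-receptor gene Tspan12 fell 1.31-fold and the gene of beta-catenin, Ctnnb1, fell 1.30-fold (edgeR adjusted p = 0.0413 and 0.0153). Ctnnb1 stood at 448 to 654 CPM, in each library above the sum of the 10 vascular genes. Which cells its RNA came from was not tested. DESeq2 did not call Tspan12. The Tspan12 call was lost without any 1 of the 6 libraries (adjusted p = 0.0621 to 0.182), and that of Ctnnb1 without wild-type P30 replicate 1 (0.0838), P100 replicate 1 (0.0567) or P100 replicate 2 (0.127). Apcdd1, a Wnt inhibitor gene of the brain endothelium, and Ctnnb1 were 1.46-fold and 1.32-fold higher in heterozygous P30 than in wild-type P100 tissue (edgeR adjusted p = 0.0146 and 0.0135). These calls were lost without heterozygous replicate 1 (0.0896 for Apcdd1 and 0.0981 for Ctnnb1), P100 replicate 1 (0.0850 and 0.0647) or P100 replicate 2 (0.0824 and 0.118), and that of Apcdd1 also without heterozygous replicate 2 (0.0765).

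Of 13 further pericyte genes, none passed between genotypes by edgeR, DESeq2 or limma-voom (4 had an unadjusted p under 0.05 in edgeR). The medians were -0.29 between genotypes and -0.26 with age. With age 2 fell by edgeR (1 fell by DESeq2) and none rose. These were Cspg4 (1.56-fold), the NG2 gene, which oligodendrocyte precursors also express, and the connexin gene Gjc1 (1.61-fold), with edgeR adjusted p of 0.0245 and 0.0359. Both calls were lost without wild-type P30 replicate 1 (0.140 for Cspg4 and 0.0530 for Gjc1), P100 replicate 1 (0.0705 and 0.218) or P100 replicate 2 (0.171 and 0.0653), and that of Gjc1 also without wild-type P30 replicate 2 (0.186). Of 6 smooth muscle genes none passed in any comparison by edgeR, DESeq2 or limma-voom (0 with an unadjusted p under 0.05 in edgeR), with medians of -0.21 between genotypes and -0.23 with age.

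**Figure D4:**
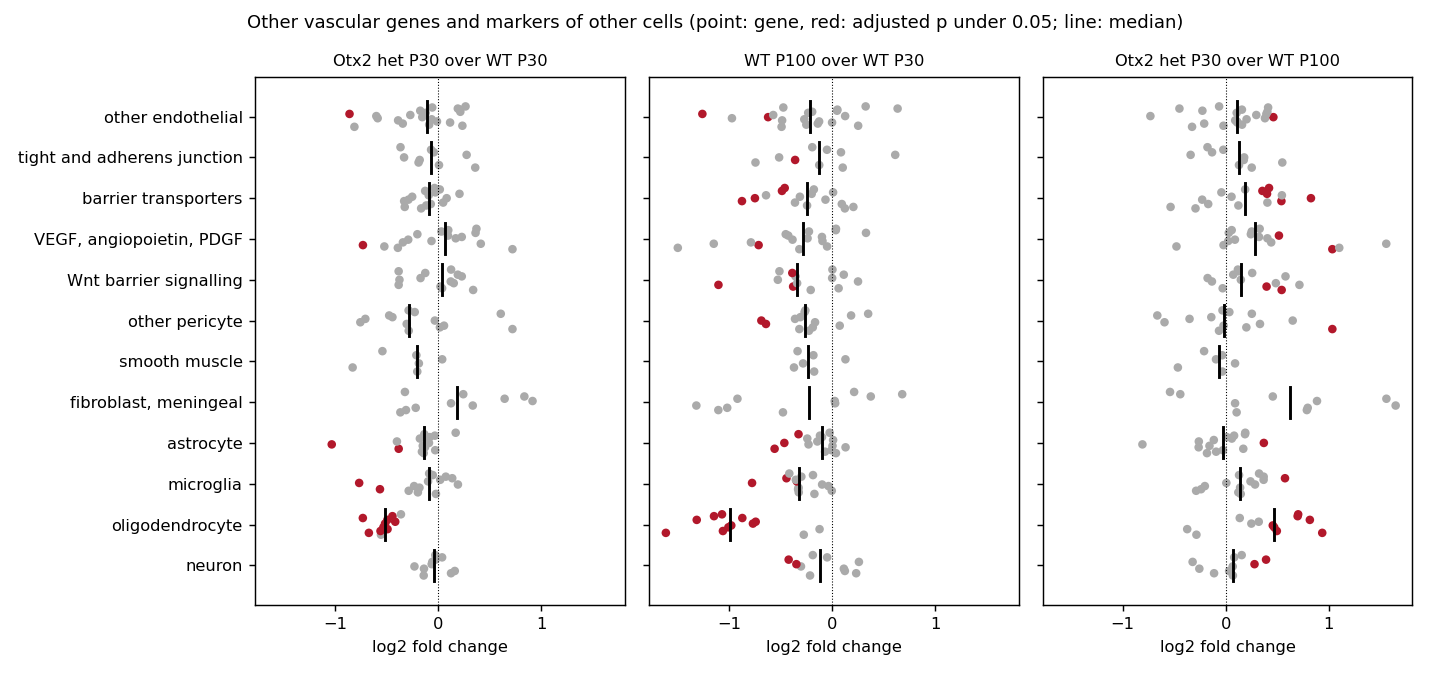
Log2 fold changes of other vascular genes and of markers of other cells, 1 point per tested gene, for heterozygous over wild-type P30, wild-type P100 over wild-type P30 and heterozygous P30 over wild-type P100 tissue; red marks adjusted p under 0.05 (edgeR) and black lines the list medians. Oligodendrocyte markers had medians of -0.52 and -0.99 in the comparisons with wild-type P30, farther from 0 than those of every vascular list shown.

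Markers of other cells were compared in the same way. Of 12 oligodendrocyte markers, 10 were lower in heterozygotes than in wild type at P30 and 10 lower at P100 than at P30, and they summed to 2370 and 2431 CPM in heterozygous libraries, 1908 and 1614 CPM in wild type at P100 and 3427 and 3284 CPM at wild-type P30. Astrocyte markers were lower for 2 of 15 in heterozygotes (1 by DESeq2) and 3 of 15 at P100, among them Aqp4, the water channel gene of the endfeet on capillaries. Between genotypes at P30, 14 of the 15 lay below 0, with a median log2 fold change of -0.14. The astrocyte markers summed to 6768 to 7527 CPM over all libraries. Microglia markers were lower for 2 of 14 in heterozygotes (1 by DESeq2) and 3 of 14 at P100 (2 by DESeq2), where all 14 lay below 0 (median log2 fold change -0.32). Of 10 neuron markers none passed between genotypes at P30 by edgeR, DESeq2 or limma-voom (2 had an unadjusted p under 0.05 in edgeR). Stmn2 and Slc17a7 were lower at P100 than at P30, with log2 fold changes of -0.42 and -0.35 (edgeR adjusted p = 0.00305 and 0.00465). The neuron markers did not all fall with age: 6 of the 10 lay below 0, with a median log2 fold change of -0.12. None was called higher by edgeR, DESeq2 or limma-voom, but 2 were higher with an unadjusted p under 0.05 in edgeR. In heterozygous P30 against wild-type P100 tissue, edgeR called 7 of the 12 oligodendrocyte markers higher. It also called 1 of 15 astrocyte, 1 of 14 microglia and 2 of 10 neuron markers higher, and none of these lower. There limma-voom called 1 oligodendrocyte and 1 neuron marker lower, and DESeq2 called 1 neuron marker lower. The 14 choroid plexus markers summed to 191.4 and 1068 CPM in heterozygous libraries, 162.6 and 176.4 CPM in wild type at P100 and 200 and 217.9 CPM at wild-type P30. Outside heterozygous replicate 2, most of this sum was 1 gene, Enpp2, at 185 CPM in heterozygous replicate 1. Enpp2 stood at 154 and 167 CPM in wild type at P100 and at 196 and 213 CPM at wild-type P30. The 6 blood markers in the files, mostly genes of red cells, summed to 9.12 and 18.3 CPM in heterozygous libraries, 9.77 and 10.9 CPM in wild type at P100 and 22.6 and 16.2 CPM at wild-type P30, and the 11 fibroblast and meningeal markers to 13.5 to 20.1 CPM over all libraries. The part of these cells in the changes of the vascular genes was not tested.

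Likeness to the 10 genes was measured as Pearson's r between each gene's log2 CPM and the mean standardised log2 CPM of the 10 over the 6 libraries. Among 10620 genes with a mean of 5 CPM or more, Klhdc4, Ppm1d, Ier2, Btbd17 and Asic1 came first, with r from 0.981 to 0.990. With 6 points and so many genes compared, this only lists the closest patterns.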

How the data were processed

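Layer IV RNA of mouse visual cortex was sequenced, and the deposited values used here are raw read counts per Ensembl transcript, per the file headers. Bowtie, HTSeq, DESeq 1.8.3 and the build mm10 are listed, per the submitters' processing notes. How they were set, which annotation was used and whether strand was used are not given in the sources used here. Without strand, reads of overlapping genes cannot be told apart. The authors' deposited tables hold a log2 fold change and an adjusted p-value per transcript and were used only where named.

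Positions and exons are from GENCODE M21 on mm10. A gene's transcript with the next most counts reached 0.883 of the top one (median), as when reads count in each transcript they overlap, so the transcript with the highest total stood for a gene. For Pdgfrb 2 transcripts tied and the lower ID was taken. Counts without a gene (13.8% to 14.1% per library) were left out. The quasi-likelihood test of edgeR 4.0.16 in R 4.3.3 was run on TMM-scaled counts of the genes kept by filterByExpr (at least 10 counts, and 15 in all), with 1 factor of 3 groups and 3 residual degrees of freedom, and adjusted by Benjamini-Hochberg over 15841 genes. SE is the log2 fold change over the root of F, and intervals use the moderated degrees of freedom. Depth limits precision for Cdh5 above all. The 2 libraries of a group differed beyond sampling noise (chi-square 3.77 to 5.57 times its degrees of freedom).

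The genes and lists were chosen with earlier results of these data known. Genes named from the other lists are up to 3 per list and comparison past the threshold with the smallest p, plus 5 of like pattern. Ocln, Vegfa, Aqp4, Stmn2, Slc17a7 and Enpp2 were added after their values were seen. Alternatives tried were scaling by RLE or the upper quartile, DESeq2 1.42.0, limma-voom (limma 3.58.1), keeping every gene with a count, keeping genes at CPM 1 or more in 2 libraries, counts summed over transcripts, only the 4 libraries compared, a replicate block and leaving out each library.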

Additional observations from a re-analysis of the deposited data

How the results depend on the processing

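Of 449 fold changes of the 10 genes under the alternatives, 413 kept their direction and their side of the threshold, 16 lost a call, 3 gained one and 17 changed sign, none of these past the threshold. For Cdh5 between genotypes, DESeq2 gave no adjusted p. Of 330 of named genes from the other lists, 259 were as reported, 71 lost a call and none changed sign. Between genotypes at P30, the number of genes called lower was 2 with no filter on low counts (Pecam1 was added, log2 fold change -0.42, edgeR adjusted p = 0.0423) and 1 under every other alternative. Leaving out 1 library gave 1 to 3 genes called lower at P100, and, for heterozygous P30 against wild-type P100 tissue, 0 to 2 called higher and 0 to 1 called lower (Flt1). At P100 the Cldn5 call was also lost with counts summed over transcripts (adjusted p = 0.0959) and with only the 4 libraries compared (0.0509), both in edgeR. The changes of sign were all of values near 0. Between genotypes they were Kdr with limma-voom (log2 fold change 0.0194) and Rgs5 with upper-quartile scaling (0.0086) and with no filter (0.0012), and, with 1 library left out, ranges of -0.26 to 0.25 for Kdr, -0.0566 to 0.11 for Slco1a4, -0.18 to 0.11 for Pdgfrb and -0.0595 to 0.0605 for Rgs5. With age the range for Pdgfrb was -0.19 to 0.0117. For heterozygous P30 against wild-type P100 tissue the ranges were -0.31 to 0.0404 for Pecam1, -0.17 to 0.0478 for Tek, -0.14 to 0.15 for Cdh5, -0.23 to 0.0206 for Abcb1a and -0.0912 to 0.20 for Pdgfrb. Over all genes, those called lower numbered 129 to 728 between genotypes, where 368 are reported, 233 to 1096 with age (719) and 135 to 715 for heterozygous P30 against wild-type P100 tissue (422), each lowest with 1 library left out and highest with no filter. The cause of these changes was not tested. The replicate numbers are shared between groups, but the labels do not tie them to a common source. The deviations of same-numbered libraries correlated at 0.208 between the P30 groups and at -0.007 in both other pairs of groups. A replicate block left the calls of the 10 genes at 1 lower between genotypes, 3 lower with age and 2 higher for heterozygous P30 against wild-type P100 tissue, and gave 450 lower and 192 higher genes of all tested between genotypes, where 368 and 143 were called without it. With 2 libraries a group, precision is limited to the intervals given.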
